A study of Mus musculus with 6 samples.

Results

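ATP-binding cassette (ABC) transporters are membrane proteins that spend ATP to move drugs, lipids, bile salts, peptides or metabolites across a membrane. The mouse family falls into subfamilies A to G by sequence, and the proteins of subfamilies E and F carry the ATP-binding domains but no membrane part and act at the ribosome. Members that pump drugs out of the cell are known for multidrug resistance in tumours, among them P-glycoprotein, which Abcb1a and Abcb1b encode in the mouse, and Abcg2, which also marks the dye-excluding side population of many tissues. The members described here were all genes whose mouse symbol begins with Abca to Abcg and a digit and that had a probe set annotated to that gene alone. There were 45 such genes among 18193 genes measured, with 92 of 45037 probe sets. The rule reads gene names and no measured value, but the members and gene lists were chosen with earlier results of these data known.

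Expression was measured on 6 Affymetrix arrays of 4434 cells, a mouse melanoma line with the Braf V600E mutation, at day 20 of partial reprogramming. All cells carried a lentiviral vector from which doxycycline induces Oct4, Sox2 and Klf4 together with a blasticidin resistance gene, and another vector for the doxycycline-dependent transactivator. The 3 + dox samples were given doxycycline, and the methods describe blasticidin selection from day 3 for such cells. The 3 − dox samples held both vectors without doxycycline, and whether they were selected is not stated. Doxycycline, the 3 factors and any difference in selection cannot be told apart in this comparison. The study examined how partially reprogrammed melanoma cells adapt to MAPK pathway inhibitors, and here the question was which transporter genes differed between the 2 states. Whether arrays of 1 group stand for different cultures is not stated in the labels or methods; the p-values therefore reflect the spread among these 6 arrays alone, and part or all of it may be technical.

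Array + dox 1 stood apart from the other + dox arrays. On the first principal component, with 63.2% of the variance, it lay at −10.5, against −41.9 and −54.4 for + dox 2 and 3 and 30.7 to 39.6 for the − dox arrays. On the second component, with 20.0% of the variance, − dox 1 was separate from − dox 2 and 3. Of 7 melanocyte markers limma called 0, with 0 at an unadjusted p under 0.05, and Mlana and Tyr, defining markers of the pigment lineage, were under the lower quartile of every array (3.84 to 3.90, depending on the array), while Mitf (6.17 to 8.15), Sox10 (6.12 to 6.46), Pmel (5.25 to 5.43) and Dct (4.21 to 4.61) were above it on all 6 arrays and Tyrp1 was under it on 5. All values are log2 values after robust multi-array average (RMA) normalisation, and all changes are + dox minus − dox on that scale. A gene was called when its limma p-value, adjusted over all genes by the Benjamini-Hochberg method, was under 0.05.

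Promoter windows are given for the called drug efflux genes Abcb1a and Abcg2 and for Abcb1b, which was not called. The P-glycoprotein genes Abcb1a and Abcb1b lie next to each other and differed in the size of their change. For Abcg2, RefSeq lists several starts that a single probe set does not tell apart. Each window runs 5′ to 3′ on the strand of the gene, from 250 bases before to 50 bases after an annotated start (RefSeq, GRCm38.p6, all on the + strand). Capitals mark the GC box GGGCGG, the CCAAT box CCAAT, the TATA box TATAAA and the KLF motif CACCC, each searched on both strands.
Abcb1a, chr5:8566841-8567140: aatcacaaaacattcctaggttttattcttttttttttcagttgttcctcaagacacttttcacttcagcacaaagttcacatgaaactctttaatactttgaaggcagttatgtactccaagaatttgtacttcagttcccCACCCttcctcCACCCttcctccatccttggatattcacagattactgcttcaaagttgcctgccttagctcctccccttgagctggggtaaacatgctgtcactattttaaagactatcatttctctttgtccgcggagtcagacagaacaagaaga
Abcb1b, chr5:8797897-8798196: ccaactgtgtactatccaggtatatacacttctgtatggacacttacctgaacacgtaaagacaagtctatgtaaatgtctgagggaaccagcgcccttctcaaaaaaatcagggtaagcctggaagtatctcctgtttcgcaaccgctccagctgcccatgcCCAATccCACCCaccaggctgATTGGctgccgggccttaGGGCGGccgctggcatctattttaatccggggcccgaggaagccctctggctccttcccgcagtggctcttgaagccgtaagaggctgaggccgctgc
Abcg2, start 1, chr6:58584283-58584582: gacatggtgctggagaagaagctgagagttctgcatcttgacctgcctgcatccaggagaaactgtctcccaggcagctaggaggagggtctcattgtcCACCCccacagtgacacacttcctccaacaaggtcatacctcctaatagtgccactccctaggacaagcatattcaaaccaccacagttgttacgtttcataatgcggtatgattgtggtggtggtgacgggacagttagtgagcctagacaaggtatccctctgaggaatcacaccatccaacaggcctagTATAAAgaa
Abcg2, start 2, chr6:58596422-58596721: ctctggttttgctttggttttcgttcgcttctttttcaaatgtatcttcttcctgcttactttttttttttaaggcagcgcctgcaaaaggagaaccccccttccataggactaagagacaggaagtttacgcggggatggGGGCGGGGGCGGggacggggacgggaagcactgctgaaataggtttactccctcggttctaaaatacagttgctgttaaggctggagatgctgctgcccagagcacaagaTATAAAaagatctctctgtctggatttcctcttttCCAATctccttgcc
Abcg2, start 3, chr6:58640296-58640595: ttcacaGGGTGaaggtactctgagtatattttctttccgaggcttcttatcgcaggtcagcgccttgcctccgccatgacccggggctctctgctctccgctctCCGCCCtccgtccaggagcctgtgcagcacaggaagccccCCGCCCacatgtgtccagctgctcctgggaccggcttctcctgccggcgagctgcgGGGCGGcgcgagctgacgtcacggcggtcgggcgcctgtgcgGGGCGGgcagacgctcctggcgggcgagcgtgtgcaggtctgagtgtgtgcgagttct

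The windows differ between genes and between starts of the same gene. The Abcb1a window held 0 GC boxes, 0 CCAAT boxes and 2 KLF motifs, at −108 and −97 from the start, and 40.3% of its bases were G or C. The Abcb1b window, with 55.0% G or C, held a GC box at −48, 2 CCAAT boxes at −87 and −66 and a KLF motif at −80. The window of Abcg2 start 3 held 4 GC boxes and 67.0% G or C, and that of start 1 held 0 GC boxes. The window of Abcc9, which was called lower in + dox, is not printed. It held 1 GC box, 5 KLF motifs and 65.7% G or C. Over the family, 35 of 45 genes had a promoter entry, with 42 windows. GC boxes were present in 50% of these windows and in 35.7% of all 32851 windows, and KLF motifs in 69.0% and 57.5%. The octamer ATGCAAAT was found in 0 of the 42 windows and 1.74% of all windows, and the SOX motif CATTGT in 7.14% and 12.6%. A match describes the letters only and is no evidence of binding.

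Within the family, 2 drug efflux genes rose in + dox cells and 1 potassium channel subunit gene fell. Abcb1a and Abcg2 were the called rises and Abcc9 the called fall, 3 of 45 ABC genes, against 4.87% of all genes called (3.07% higher and 1.8% lower). Counted this way, calls in the family were near the share over all genes, and 38 of the 45 members had a change under 0.5 in size. Unadjusted p was under 0.05 for 8 ABC genes, against 21.7% of all genes. The 2 groups of arrays did not overlap for 12 ABC genes, 7 higher and 5 lower in + dox, against 26.9% of all genes. The change exceeded 1 in size for 4 members, Abcb1a, Abcg2, Abcc9 and Abcd4, which is 8.89% of the family, against 5.13% of all genes. The median change of the family was 0.11, and that of all genes 0.01.

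**Figure D1:**
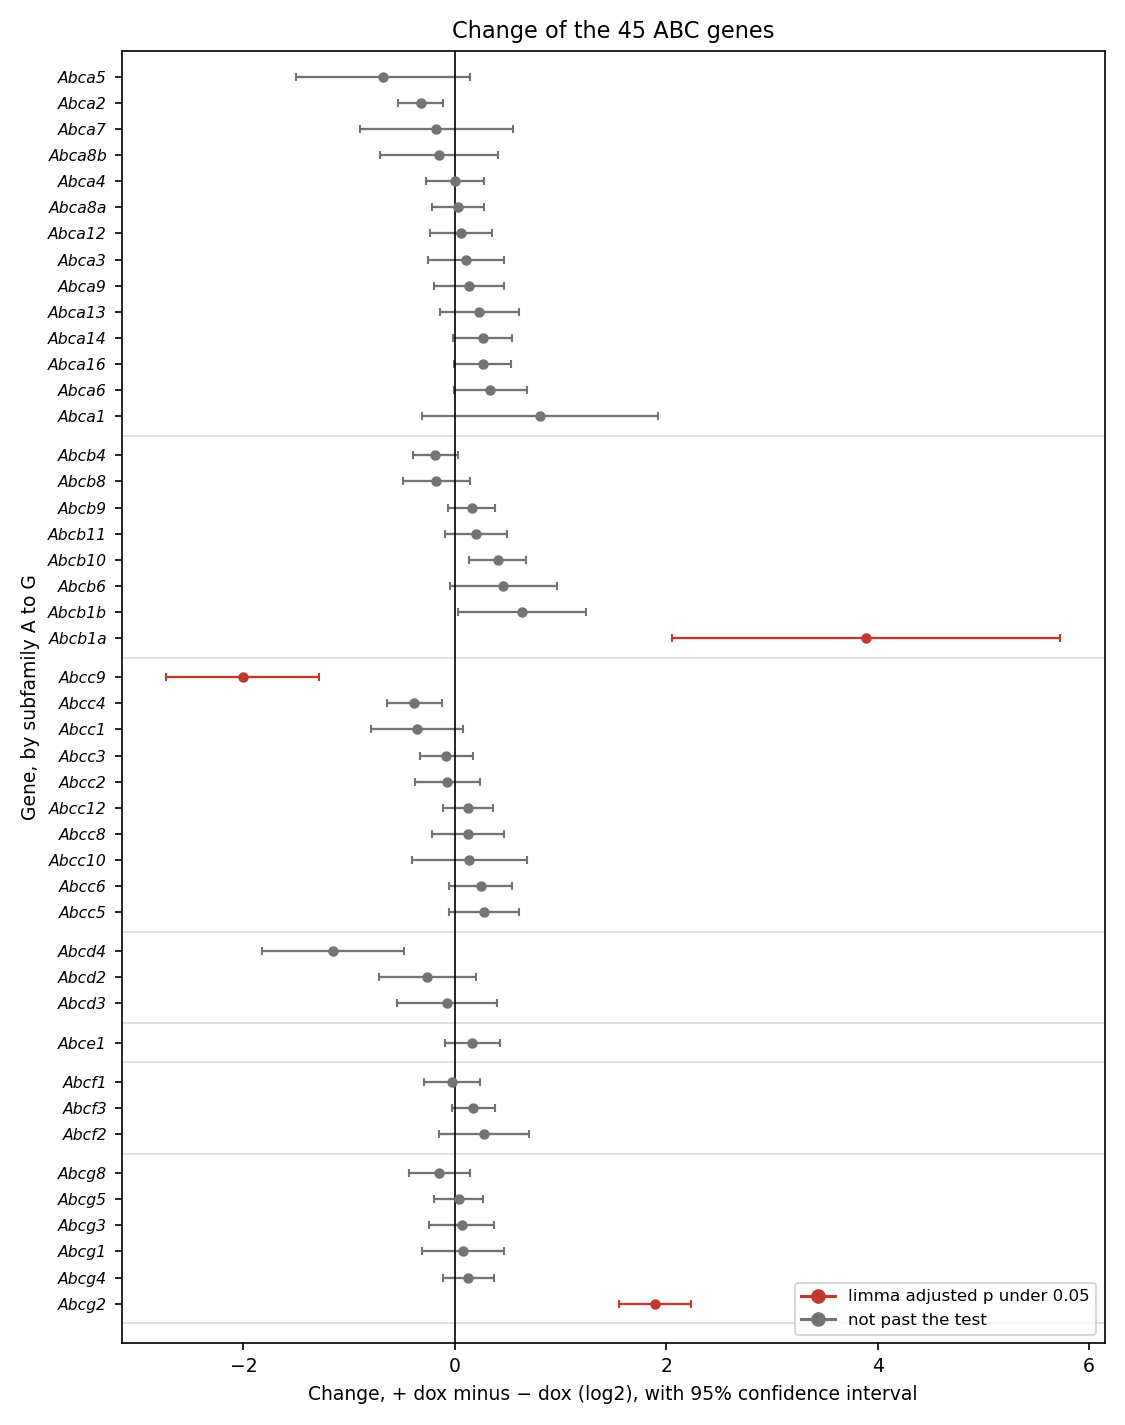
Change of each of the 45 ABC genes, + dox minus − dox, on a log2 axis, ordered by size within subfamilies A to G, with 95% confidence intervals from limma. Red marks the 3 called genes: Abcb1a at 3.89 and Abcg2 at 1.89 lie to the right, Abcc9 at −2.01 to the left, and 38 genes lie within 0.5 of 0.

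The drug efflux list was chosen with earlier results of these data known, so its counts are descriptive only. It named 10 genes, of which 9 were measured. Of these, 2 rose, 0 fell and 7 did not pass the test, against 4.87% of all genes called, and 4 had an unadjusted p under 0.05, against 21.7% of all genes. The median change was 0.14. Abcg2, the breast cancer resistance protein and a pump of many anticancer drugs, stood at 11.14, 11.34 and 11.62 in the + dox arrays and 9.53, 9.37 and 9.52 in the − dox arrays. All + dox values lay above all − dox values, and the arrays of each group were close together. Abcg2 rose by 1.89 (SE 0.14), or 3.71-fold, with a limma adjusted p of 0.0021.

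Abcb1a, 1 of the 2 mouse P-glycoprotein genes and the form known from the blood-brain barrier and the gut, stood at 7.88, 10.20 and 10.07 in + dox and 6.55, 5.53 and 4.40 in − dox cells. The groups did not overlap, but + dox 1 lay well under the other + dox arrays and the − dox arrays spread over more than 2 log2 units. Abcb1a rose by 3.89 (SE 0.77, 95% confidence interval 2.05 to 5.73), or 14.8-fold, with a limma adjusted p of 0.0431. This call lay near the threshold. Leaving out each array in turn with the same probe set kept it in 2 of 6 cases, without + dox 1 (4.64, adjusted p 0.0110) and without − dox 1 (4.42, adjusted p 0.0278), and gave an adjusted p of up to 0.161 in the others. The change was positive in all 6 cases, from 3.34 to 4.64, and from 2.94 to 4.64 with 2 calls when the probe set was chosen again in each fit.

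Abcb1b, the other P-glycoprotein gene, stood at 9.51, 10.25 and 10.53 in + dox and 9.41, 9.46 and 9.51 in − dox cells. Array + dox 1 equalled − dox 3, and the other + dox arrays were higher. The change was 0.64 (SE 0.25, 95% confidence interval 0.03 to 1.24), with a limma adjusted p of 0.208, and without + dox 1 it was 0.93 with an adjusted p of 0.0122. The other Abcb1b probe set, 1446701_at, had a difference of 0.057, and the mean of all its probe sets one of 0.35 (limma adjusted p 0.34). Abcb1a and Abcb1b are close paralogues, and whether probes of either also bind the transcript of the other was not checked here; the difference between their changes was not tested.

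**Figure D2:**
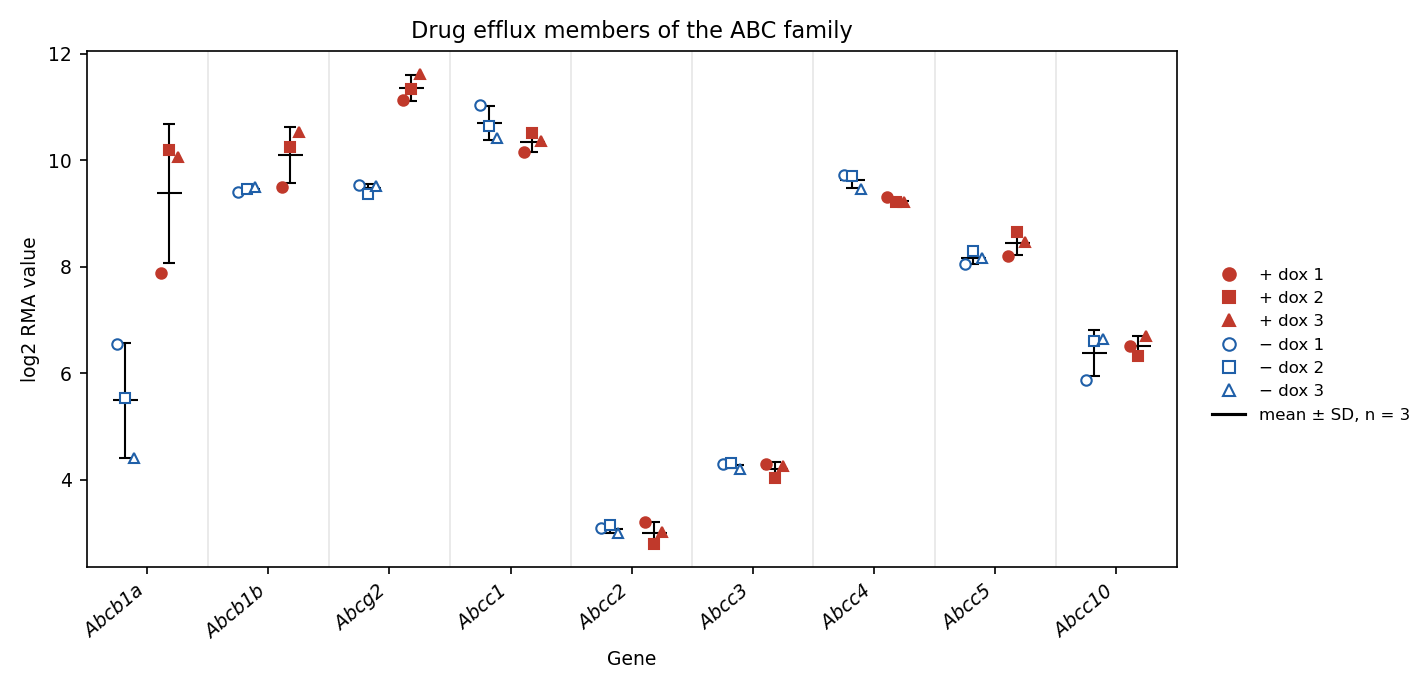
The log2 RMA value of the 9 measured drug efflux genes in each array, with + dox arrays in red and − dox arrays in open blue symbols; bars are the mean and SD of 3 arrays. Abcg2 separates the groups with little spread (11.14 to 11.62 against 9.37 to 9.53), Abcb1a separates them with a wide spread, and the groups overlap or lie close for the other genes.

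The drug-exporting members of subfamily C did not pass the gene test. Abcc4, an exporter of cyclic nucleotides and nucleoside drugs, stood at 9.31, 9.22 and 9.21 in + dox and 9.73, 9.70 and 9.46 in − dox cells. Its groups did not overlap, and its change was −0.38 (SE 0.11, limma adjusted p 0.0996). Abcc1, the first multidrug resistance-associated protein and a glutathione conjugate pump, stood at 10.16, 10.51 and 10.36 in + dox against 11.04, 10.65 and 10.42 in − dox cells. The Abcc1 groups overlapped, with a change of −0.36 (95% confidence interval −0.79 to 0.07, limma adjusted p 0.321). Abcc10 had a change of 0.14 (95% confidence interval −0.41 to 0.68) on the probe set that stood for it and of −0.60 on the other, so its direction depended on the probe set.

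Abcc2 and Abcc3 were also not called. Abcc2, a canalicular exporter of conjugates, was under the lower quartile on all 6 arrays, with values from 2.80 to 3.21 in + dox cells and from 2.99 to 3.15 in the − dox group. Abcc3, a basolateral exporter of conjugates, had a difference of −0.08 (95% confidence interval −0.33 to 0.17, limma adjusted p 0.735).

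Abcc5, an exporter of cyclic nucleotides, had 10 probe sets, the most of any member. The one that stood for the gene read 8.21, 8.65 and 8.47 in + dox and 8.06, 8.29 and 8.16 in − dox cells, a change of 0.27 (limma adjusted p 0.325). Of all 10, 9 had a positive change, 7 had an unadjusted p under 0.05, and 2 passed the test over all probe sets. The probe set 1427565_a_at read 6.87, 7.06 and 7.43 against 6.29, 6.22 and 6.33 (change 0.84, limma adjusted p 0.0476), and 1459782_x_at read 5.01, 5.35 and 5.36 against 4.60, 4.34 and 4.56 (change 0.74, limma adjusted p 0.0484). Both were higher in every + dox array than in every − dox array. These probe sets share a target gene and are not independent measurements. With the probe set of largest variance standing for each gene, Abcc5 was called (change 0.84, limma adjusted p 0.0399). With the mean of all probe sets its change was 0.435 (limma adjusted p 0.0659).

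The other called member was Abcc9, which encodes SUR2, the regulatory subunit of ATP-sensitive potassium channels and no pump. Its probe set stood at 3.81, 3.84 and 3.58 in + dox and 5.46, 5.32 and 6.47 in − dox cells. All + dox values lay under the lower quartile of their arrays, and − dox 3 was the highest. Abcc9 fell by 2.01 on the log2 scale (SE 0.30, limma adjusted p 0.0214), and no fold is given because the + dox signal was this low and its distance from background is not known. This rested on 1 of 3 probe sets: the others had differences of −0.33 (1420408_a_at, unadjusted p 0.0235 in limma over all probe sets) and −0.08 (1435751_at), and the mean of all 3 had a difference of −0.80 with an adjusted p of 0.0587. With the probe set chosen again in each fit that left out an array, 1 call of 6 held, without + dox 1, and the change was −0.21 without − dox 1, −0.09 without − dox 2 and 0.055 without − dox 3, where another probe set had the highest mean. With the probe set kept, an alternative added after seeing the data, leaving out each array gave changes of −2.22 to −1.65 and 3 calls of 6, with the highest adjusted p, 0.0986, without + dox 3. The other arrays whose loss ended the call were + dox 2 and − dox 2. The other subunit gene of these channels in the family, Abcc8, was under the lower quartile on 5 of 6 arrays and had a difference of 0.13.

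Kcnj8, which encodes a pore subunit of the same channels and lies next to Abcc9, stood at 4.89, 4.33 and 4.12 in + dox and 4.77, 5.27 and 5.73 in − dox cells, a change of −0.81 that did not pass the test (limma adjusted p 0.173). Ldhb, a lactate dehydrogenase gene on the far side of Kcnj8, stood at 8.93, 8.43 and 8.32 against 9.81, 9.77 and 9.93 and fell by 1.28 (limma adjusted p 0.0158). On the other side, Cmas had a difference of 0.18. Next to Abcb1a, Rundc3b, which overlaps it, had a difference of 0.53 (limma adjusted p 0.0772) and Slc25a40 one of 0.27. Abcb4, beyond Abcb1b, had a difference of −0.18. Herc3 and Nap1l5, which follow Abcg2, had differences of 0.20 and 0.10, and neither passed the test. Nap1l5 was under the lower quartile on all 6 arrays, and Vmn1r30 and Vmn1r31, before Abcg2, were not measured. These neighbours were named for their position.

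**Figure D3:**
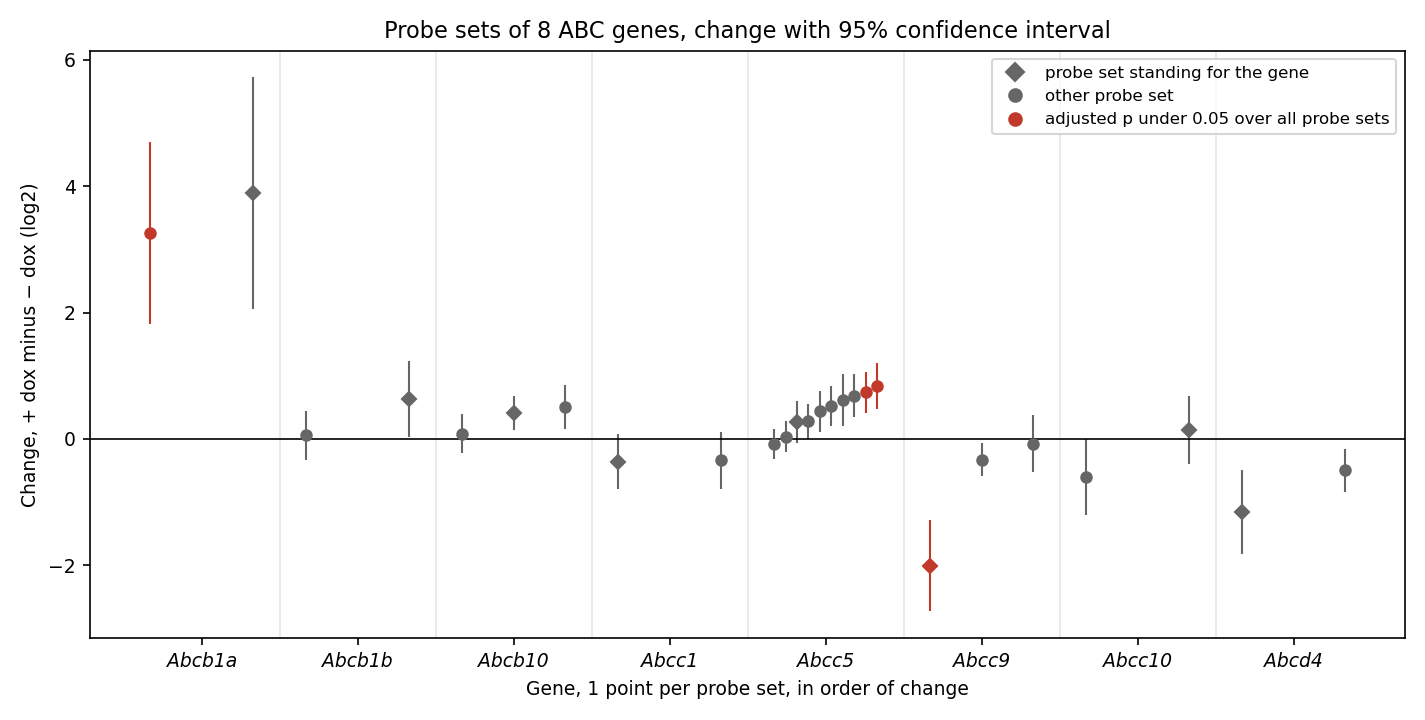
Change of each probe set of 8 ABC genes, + dox minus − dox (log2), with 95% confidence intervals from the fit over all probe sets; diamonds are the probe sets that stood for the genes, and red marks an adjusted p under 0.05 over all probe sets. Both Abcb1a probe sets lie above 3, 9 of 10 Abcc5 probe sets lie above 0, and 1 of 3 Abcc9 probe sets lies far below the others.

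Probe sets of 1 gene did not always move together. In the fit over all probe sets 5 of 92 ABC probe sets were called, against 2.53% of all probe sets: 1 each of Abcb1a, Abcg2 and Abcc9, and 2 of Abcc5. The called Abcb1a probe set was 1419759_at, at 7.85, 9.61 and 9.46 against 6.65, 5.61 and 4.88 (change 3.26, limma adjusted p 0.0483), and the one that stood for the gene had an adjusted p of 0.0578 there. Of the 26 genes with several probe sets, 15 had all changes of 1 sign and 11 did not, and 0 had probe sets of opposite sign with unadjusted p under 0.05. For 19 genes, Abcg2 among them, the array held 1 probe set, so no other was available to compare.

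Subfamilies were read from the gene symbols, so Cftr, Tap1 and Tap2, ABC proteins with other symbols, were not counted. Limma called 0 of 14 A genes, 1 of 8 B genes, 1 of 10 C genes and 0 of 3 D genes. It also called 0 of 1 E gene, 0 of 3 F genes and 1 of 6 G genes. At an unadjusted p under 0.05 there were 1, 3, 2, 1, 0, 0 and 1 in the same order. Over all genes, 4.87% were called and 21.7% had an unadjusted p under 0.05. The median changes were 0.085 in A, 0.31 in B, 0.027 in C, −0.26 in D, 0.17 in F and 0.07 in G, and the only E gene, Abce1, had a difference of 0.17. Differences between subfamilies were not tested. In subfamily G the sterol transporter gene Abcg8 had a difference of −0.15, and the other members besides Abcg2 lay between 0.037 and 0.13.

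The lipid and sterol list held 12 measured members, none called, with a median of 0.048, 1 unadjusted p under 0.05 (Abca2) and 2 genes whose groups did not overlap. Over all genes, 21.7% had an unadjusted p under 0.05 and 26.9% had groups that did not overlap. Abca1, the cholesterol efflux pump, stood at 5.82, 7.05 and 7.52 in + dox and 5.46, 6.03 and 6.48 in − dox cells. In both groups the array numbered 1 was the lowest and the groups overlapped, with a change of 0.81 (95% confidence interval −0.31 to 1.92, limma adjusted p 0.387). Leaving out + dox 3 gave 0.45, leaving out − dox 1 gave 0.54 and leaving out + dox 1 gave 1.30. The gene was called when both arrays numbered 1 were left out (1.03, limma adjusted p 0.0183). Abca5, a lysosomal member without a role in the lists used here, stood at 8.94, 9.11 and 8.42 against 10.24, 9.03 and 9.23, a change of −0.68 (limma adjusted p 0.326), and − dox 1 was the highest array. Without − dox 1 the difference was −0.31, and over all arrays left out it spanned −0.91 to −0.31. Abca2, named after its values were seen, had a difference of −0.32 (limma adjusted p 0.0932).

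The members of organelles also gave no calls. Abcd4, which helps to move vitamin B12 out of the lysosome, had the largest change among the members that were not called. It stood at 8.22, 7.90 and 7.39 in + dox and 9.47, 8.82 and 8.68 in − dox cells, so that all + dox values lay below all − dox values. The change was −1.15 (SE 0.28, 2.22-fold, limma adjusted p 0.0704), its other probe set had a difference of −0.49, and without + dox 1 it was −1.34 with an adjusted p of 0.0458. The lysosomal list held 1 other gene, Abcb9, with a difference of 0.16, so it had 0 calls of 2 and 1 unadjusted p under 0.05. Mmachc, which acts on vitamin B12 after its release, had a difference of −0.31 (limma adjusted p 0.225). The peroxisomal list had 2 measured members, with 0 called and 0 at an unadjusted p under 0.05. Abcd2, a transporter of very long-chain fatty acids, had a difference of −0.26. Of 3 measured mitochondrial members 0 were called and 1, Abcb10, had an unadjusted p under 0.05, against 4.87% and 21.7% of all genes. Abcb10, a mitochondrial transporter linked to haem synthesis and named after its values were seen, stood at 8.66, 8.80 and 8.50 against 8.15, 8.26 and 8.33, with a change of 0.41 (limma adjusted p 0.0975).

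The bile salt and organic anion list had 3 members and a median of 0.20, and the 4 ribosome and translation genes had a median of 0.17. In both lists limma called 0, with 0 at an unadjusted p under 0.05, against 4.87% and 21.7% of all genes. Abce1, the ribosome recycling factor, had a difference of 0.17 (95% confidence interval −0.09 to 0.42), Abcf2 one of 0.27 and Abcf3 one of 0.17. Of the 8 members with no role given here, 0 were called and 0 had an unadjusted p under 0.05, against the same shares. Of all 45 members, 5 were under the lower quartile on all 6 arrays and 7 on some of them, and 33 were above it throughout.

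**Figure D4:**
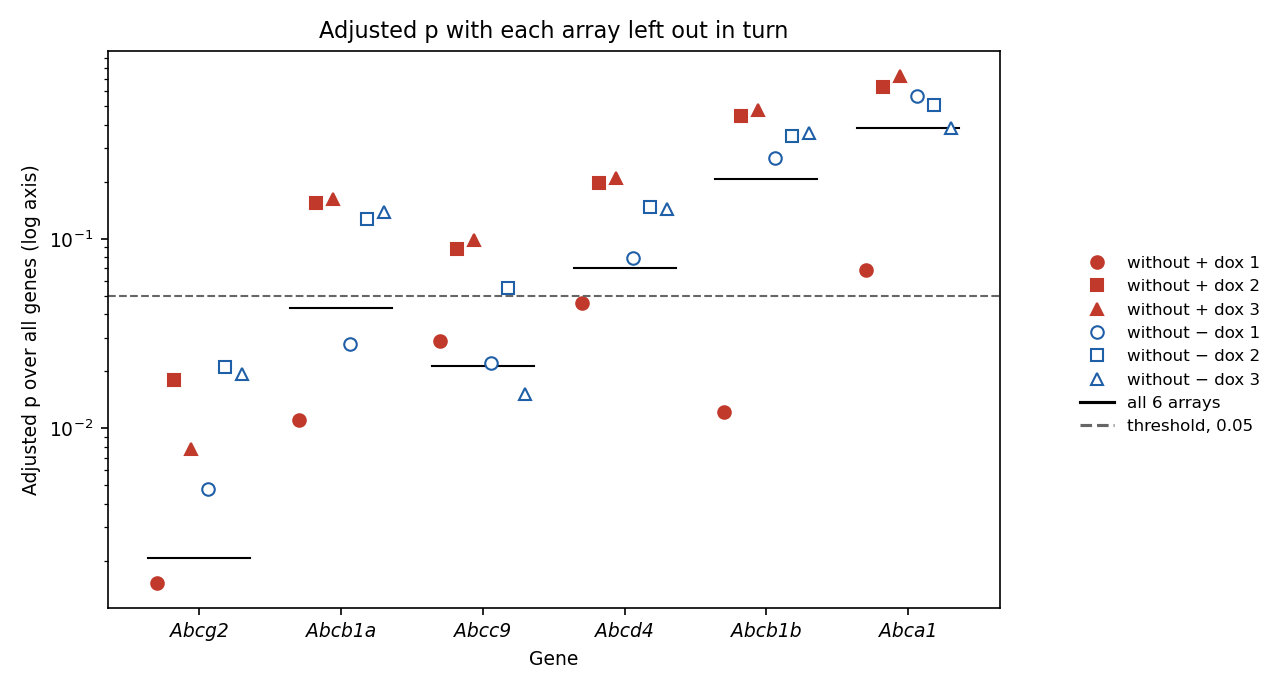
Limma adjusted p over all genes (log axis) for 6 ABC genes with each array left out in turn and the probe set kept; black lines are the values with all 6 arrays and the dashed line is the threshold of 0.05. All 6 Abcg2 points lie under the threshold, from 0.0015 to 0.0209, while 2 Abcb1a, 3 Abcc9, 1 Abcd4, 1 Abcb1b and 0 Abca1 points do.

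Abcg2 was the 1 member called in each of the 6 fits that left out an array, with changes of 1.77 to 2.01 and adjusted p of 0.0015 to 0.0209. Without + dox 1 the family had 5 calls, Abcb1a, Abcb1b, Abcc9, Abcd4 and Abcg2, against 9.07% of all genes called. Without + dox 2, + dox 3, − dox 2 or − dox 3 it had 1. The shares of all genes called there were 0.923%, 0.830%, 0.665% and 0.649% in the same order. The probe set was chosen again in each of these fits.

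Among ABC proteins outside these symbols, Cftr, the chloride channel gene of cystic fibrosis, stood at 8.47, 8.70 and 8.83 in + dox and 7.22, 7.07 and 6.48 in − dox cells. It rose by 1.74 (SE 0.21, 3.35-fold, limma adjusted p 0.0125) with no overlap. The peptide transporter genes Tap1 and Tap2, whose products carry peptides for class I antigen presentation, were not called. Tap1 stood at 6.77, 8.63 and 8.60 against 7.83, 6.70 and 6.68, so that both arrays numbered 1 went against the rest of their group, with a change of 0.93 (limma adjusted p 0.416). Tap2 had a difference of −0.60 (limma adjusted p 0.122). Tap1 and Tap2 were named after their values were seen.

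Of 18 measured transporters of other families that also carry drugs, 3 rose and 0 fell, against 3.07% and 1.8% of all genes, with a median change of 0.12. Slc22a4, a carrier of ergothioneine and organic cations, stood at 6.34, 6.76 and 6.90 in + dox and 5.62, 5.51 and 5.27 in − dox cells, and rose by 1.20 (limma adjusted p 0.0195). Slc15a4, a lysosomal histidine and peptide carrier, rose by 0.90 (limma adjusted p 0.0284), and Slco3a1, an organic anion carrier, by 0.93 (limma adjusted p 0.0476). In all 3 genes every + dox array was above every − dox array. The calls of Cftr and of these 3 transporters were all lost without + dox 2, + dox 3 or − dox 2.

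**Figure D5:**
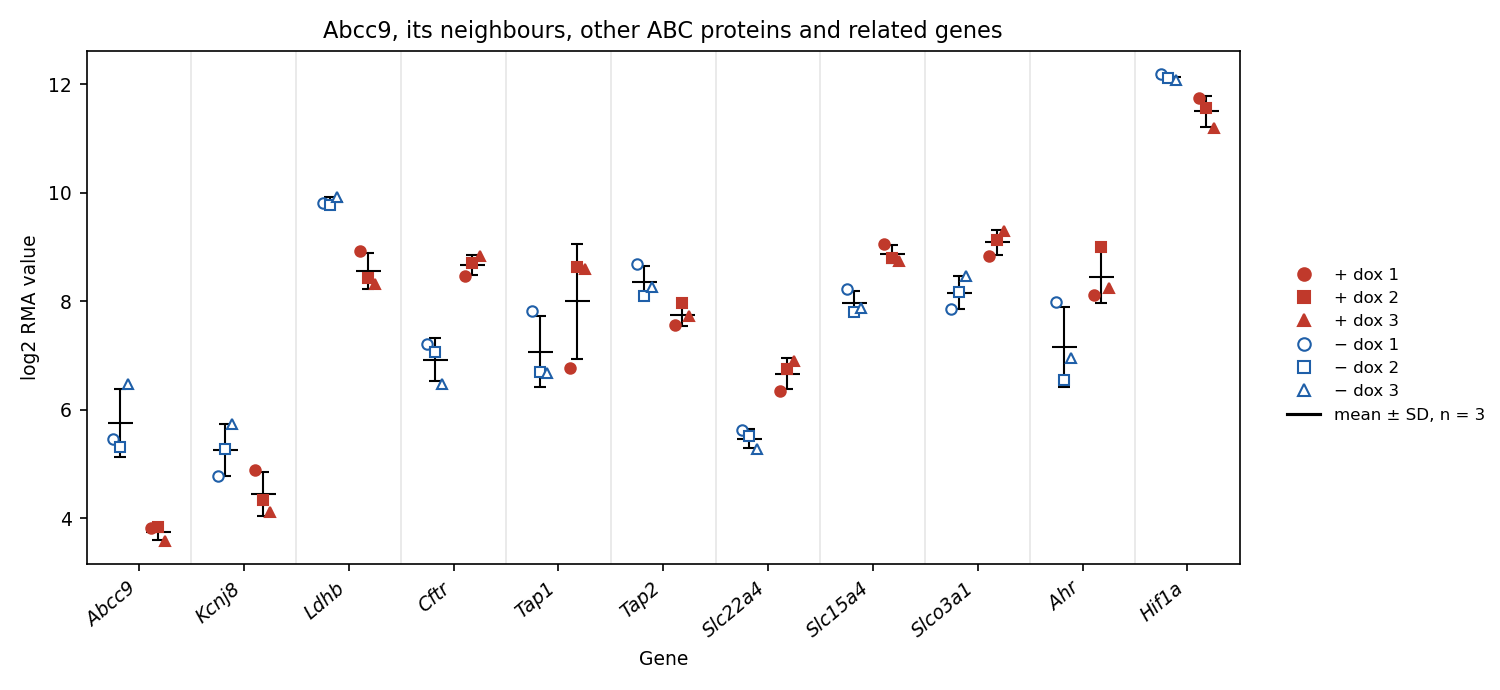
The log2 RMA value of Abcc9, its neighbours Kcnj8 and Ldhb, other ABC proteins, called transporters of other families and 2 regulators in each array; bars are the mean and SD of 3 arrays. Cftr, Slc22a4, Slc15a4 and Slco3a1 are higher in every + dox array, Ldhb is lower in every + dox array, and the Tap1 groups overlap.

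Of 20 measured genes for regulators of ABC transcription, such as nuclear receptors, 0 were called by limma and 6 had an unadjusted p under 0.05, with a median of 0.037. Hif1a, the hypoxia factor, stood at 11.75, 11.57 and 11.19 in + dox and 12.19, 12.12 and 12.09 in − dox cells, a change of −0.63 (limma adjusted p 0.0718). Srebf1, a regulator of lipid synthesis, had a difference of −0.66 (limma adjusted p 0.105). Ahr, the dioxin receptor, named after its values were seen, stood at 8.11, 9.00 and 8.25 against 7.98, 6.54 and 6.95, a change of 1.30 (limma adjusted p 0.128). Of 10 other target genes of the oxysterol receptor LXR, which also controls Abca1 and Abcg1, 0 were called by limma and 5 had an unadjusted p under 0.05, against 4.87% and 21.7% of all genes. Among them Scd1 had a difference of 0.68 (limma adjusted p 0.0629) and Pltp one of −0.71 (limma adjusted p 0.0738). Of 11 partner genes of ABC proteins, Kcnj8 and Mmachc among them, 0 were called by limma and 2 had an unadjusted p under 0.05.

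Markers of cell types other than melanocytes were read beside the efflux genes, since endothelium and skin also express several of them. In bulk samples a change in the number of cells of a type and a change in RNA per cell cannot be told apart. The summed linear level of 5 endothelial markers ranged from 157 to 251 over the + dox arrays and from 117 to 149 over the − dox arrays. Limma called 0 of them, against 4.87% of all genes, and 1, Tek, had an unadjusted p under 0.05, against 21.7% of all genes. The highest + dox level went with Tek, at 7.01 in + dox 1, 4.58 in + dox 2 and 4.49 in + dox 3. For 5 keratinocyte markers it was 353 to 584 against 127 to 170, where Krt14, a basal keratin gene, was called (change 3.67, limma adjusted p 0.0017) and Trp63 was under the lower quartile on all arrays. Krt14 carried most of this sum in the + dox arrays, 1 of its 3 probe sets had the opposite sign, and its partner Krt5 had a difference of −0.05 and Krt1 one of 0.073. It was 180 to 271 against 126 to 264 for 5 immune markers, with Ptprc under the lower quartile, 542 to 928 against 958 to 1713 for 5 fibroblast markers, with Lum under it, and 245 to 293 against 269 to 447 for the 7 melanocyte markers. Within the fibroblast list Col3a1 had a difference of −1.35 (limma adjusted p 0.102) and Dcn one of 0.85 (limma adjusted p 0.0525), in opposite directions. Of the 5 immune markers limma called 0, and 4 changes were positive and 1 negative. Cd74 was lower in every + dox array (−0.50, limma adjusted p 0.106). Itgam had a difference of 1.17 (limma adjusted p 0.301) and Cd68 one of 1.24 (limma adjusted p 0.323). The part of these markers in the results for Abcb1a, Abcg2 and Abcc9 was not tested.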

How the data were processed

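Expression of 4434 cells at day 20 was measured on 6 Affymetrix mouse arrays, 3 + dox and 3 − dox as the labels give them. The deposited values are log2 expression values that the authors made with RMA (background correction, quantile normalisation, summary per probe set) in Chipster. The Chipster version and chip definition are not given in the sources used here. RMA values have 2 decimals, range from 2.08 to 14.44, have column medians of 5.33 to 5.37 and carry no detection call, so the lower quartile of an array served as a mark of low signal. The scale was read from these values.

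Of 45101 probe sets, 64 controls were left out. Of the rest 34945 had 1 gene in the platform annotation and 932 several; 34741 were found in RefSeq (GRCm38.p6) by identifier, which changed 0 symbols. Each of 18193 genes was represented by its probe set of highest mean. Abcb5 was not analysed here. The + dox and − dox arrays were tested against each other in R 4.3.3 by limma 3.58.1 (eBayes after lmFit with group alone, two-sided, Benjamini-Hochberg over all genes or all probe sets, threshold 0.05), which was tested on simulated data. The number of arrays limits the precision.

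The genes named were all measured drug efflux genes, ABC genes called through any probe set, the 2 largest changes per subfamily, and the called genes of each related list, at most 4, or the 2 of smallest p. ABC genes whose probe sets with unadjusted p under 0.05 differed in sign were also to be named, and there were 0. Others were neighbours and markers or were chosen after their values were seen, among them Abcc8. The members and lists were chosen with earlier results of these data known. Same-numbered arrays were not taken as pairs. Alternatives were the replicate block, other probe set choices, filters on dim genes, eBayes with trend and robust settings, renormalisation, an adjusted threshold of 0.01, an unadjusted p under 0.05 with a 2-fold limit, each array left out and both arrays numbered 1 left out; keeping the probe set when an array was left out was added after seeing the data.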

Additional observations from a re-analysis of the deposited data

How the results depend on the processing

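The counts of calls depended on the arrays used and on the choice of probe set. The count of ABC genes called, 3 with all arrays, was 6 without both arrays numbered 1, 1 at an adjusted threshold of 0.01 and 1 to 5 with an array left out. That of drug efflux genes, 2 with all arrays, was 1 with the replicate block, 1 at 0.01 and 1 to 3 with an array left out. The count of ABC probe sets called, 5 with all arrays, was 2 with the replicate block, 11 without both arrays numbered 1, 1 at 0.01 and 1 to 8 with an array left out. The related lists, with 4 calls, had 2 with the replicate block, 20 without both arrays numbered 1, 0 at 0.01 and 0 to 8 with an array left out. Over all genes, 886 calls became 303 with the block, 3649 without both arrays numbered 1 and 118 to 1650 with an array left out. The median change of the ABC genes, 0.11, was 0.037 with the mean of all probe sets, 0.037 with the probe set of largest variance, 0.06 without both arrays numbered 1, 0.07 and 0.13 without genes under the 20% and 40% quantiles, and 0.055 to 0.13 with an array left out. With an unadjusted p under 0.05 and a 2-fold limit there were 4 ABC, 2 drug efflux and 5 related genes. The cause of these shifts was not tested.

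Abcc10 turned to −0.23 with the mean of all probe sets, −0.60 with the probe set of largest variance, −0.11 without both arrays numbered 1 and −0.11 without − dox 1, also with the probe set kept, and spanned −0.11 to 0.27 over the arrays left out. Abce1 turned to −0.20 with the probe set of largest variance, and Abcc2 to 0.033 without + dox 2, also with the probe set kept, within −0.17 to 0.033 over the arrays left out. Abcc9 spanned −2.06 to 0.055 over the arrays left out and turned to 0.055 without − dox 3, where another probe set had the highest mean and stood for the gene. Same-numbered arrays correlated at −0.12, −0.22 and 0.08 in their deviations from the group means, and no pairing was assumed; with the replicate block Abcg2 and Abcd4 were the ABC genes called, and Abcb1a had an adjusted p of 0.117. The 3 arrays per group set the limit on small changes.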
